A study of Mus musculus with 6 samples.

Results

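Messenger RNA levels of 9 chemokine and chemoattractant receptors were examined in macrophages with lowered *Etv5*, a transcription factor of the ETS family. The receptors were *Ccr1*, *Ccr2*, *Ccr3*, *Ccr7*, *Ccrl2*, *Cx3cr1*, *Cxcr4*, *Fpr1* and *Fpr2*. They were picked by gene symbol, and all 9 were found among the 24786 symbols of the expression table. The cells were Raw264.7, a mouse macrophage line founded from a tumor that was induced by Abelson murine leukemia virus. They were infected with lentivirus for a short hairpin RNA (shRNA) that was either a control, called sh-NC, or directed at *Etv5*, called sh-*Etv5*, with 3 libraries in each group. For both groups the labels give Lipofectamine 3000 Reagent during infection, a strain of C57BL/6, an age of post natal day 21, and detection at 24 or 48 h without saying which. The study itself describes the sequenced cells as stably transfected. Which shRNA was sequenced, and whether replicate libraries represent separate cultures or infections, is not given in the sources used here. The p-values therefore measure only the spread between these libraries, which may be technical.

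Chemokines are small secreted proteins that direct the movement of leukocytes. Their receptors cross the membrane repeatedly and pass the signal to heterotrimeric G proteins of the Gi class, which act through Gβγ subunits, PI3-kinase and Rac on the actin skeleton. Formyl peptide receptors and complement receptors work in the same way but recognize bacterial or mitochondrial peptides and complement fragments. In macrophages and their monocyte precursors, such receptors govern entry into tissue, retention there and movement toward sites of injury.

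The deposited values are RPKM, that is reads per kilobase of gene relative to all mapped reads, so levels of different genes can be compared per length. The sequencing depth of the libraries is unknown, and no counting interval was computed. RPKM values summed to between 320462 and 340257 in the 6 libraries. The mean of *Etv5* itself fell by 46.0%, with 9.18, 9.89 and 9.39 RPKM in control and 5.19, 4.91 and 5.28 RPKM in knockdown libraries (limma adjusted p = 2.74e-07). Of 9 macrophage markers in the table, 8 reached 1 RPKM in at least 3 libraries, with 4 called higher and 4 called lower in sh-*Etv5* cells. All 8 were thus called, as were 74.3% of all genes that reached this level. *Csf1r*, the receptor for macrophage colony-stimulating factor, had a mean of 428.5 ± 4.56 RPKM in control and of 243.5 ± 6.72 RPKM in knockdown libraries (SD, n = 3). *Itgam*, an integrin subunit of myeloid cells, was 3.77-fold higher and *Adgre1*, which encodes the surface protein F4/80, 4.35-fold higher after knockdown. The marker under the filter was *Mertk*, which stayed at or under 0.0653 RPKM. In bulk libraries such as these, fewer cells that express a gene and less RNA per cell cannot be told apart.

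The genes lie on 4 chromosomes. On chromosome 9, RefSeq (GRCm38.p6) places *Ccrl2* at 111054834 to 111057518, *Cx3cr1* at 120048683 to 120068296, *Ccr1* at 123962126 to 123968692, *Ccr3* at 124017825 to 124031692 and *Ccr2* at 124101918 to 124109140. *Cxcr4* lies on chromosome 1 at 128588199 to 128592299 and *Ccr7* on chromosome 11 at 99144199 to 99155077. *Fpr1* and *Fpr2* are neighbours on chromosome 17, at 17876471 to 17883939 and 17887824 to 17893952, transcribed away from each other with 3.88 kb between them.

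The 250 bases upstream of the annotated start are printed for *Ccrl2*, the receptor that rose past the filter, for *Fpr1* and *Fpr2*, which were listed at 0 in every control library, and for *Cxcr4*, which fell. They were taken from RefSeq on GRCm38.p6 and run 5′ to 3′ along the gene's strand. Capitals mark letters that match TATAAA, the NF-κB pattern (GGGA followed, after any 3 bases, by TCC) or the PU.1-type pattern GAGGAA on either strand.
*Ccrl2* (chr9:111057519-111057768, minus strand): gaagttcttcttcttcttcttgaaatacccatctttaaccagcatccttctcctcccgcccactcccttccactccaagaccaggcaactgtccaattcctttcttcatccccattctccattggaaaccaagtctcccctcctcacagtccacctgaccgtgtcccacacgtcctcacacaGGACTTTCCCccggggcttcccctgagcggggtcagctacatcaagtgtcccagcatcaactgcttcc
*Fpr1* (chr17:17883940-17884189, minus strand): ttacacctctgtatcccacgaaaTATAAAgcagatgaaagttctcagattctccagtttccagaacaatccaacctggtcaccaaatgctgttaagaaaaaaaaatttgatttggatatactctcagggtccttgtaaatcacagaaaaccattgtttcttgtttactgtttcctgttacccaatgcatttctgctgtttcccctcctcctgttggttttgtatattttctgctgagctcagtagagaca
*Fpr2* (chr17:17887574-17887823, plus strand): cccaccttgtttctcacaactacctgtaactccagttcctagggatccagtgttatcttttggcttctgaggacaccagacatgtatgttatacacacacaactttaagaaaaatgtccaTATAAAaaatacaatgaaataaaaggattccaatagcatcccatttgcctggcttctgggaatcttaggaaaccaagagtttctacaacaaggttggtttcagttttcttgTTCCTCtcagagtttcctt
*Cxcr4* (chr1:128592300-128592549, minus strand): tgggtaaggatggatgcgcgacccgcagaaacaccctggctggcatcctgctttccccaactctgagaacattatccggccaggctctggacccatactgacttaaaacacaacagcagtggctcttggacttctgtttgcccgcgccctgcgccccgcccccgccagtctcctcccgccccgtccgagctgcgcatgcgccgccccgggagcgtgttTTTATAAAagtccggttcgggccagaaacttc
In the *Ccrl2* window, an NF-κB match lay 68 to 59 bases before the start, the window held 54.0% G or C, and 2 further annotated starts of this gene lie downstream. The *Fpr2* window held a PU.1-type match 19 to 14 bases and a TATAAA match 130 to 125 bases before the start, whereas in the *Fpr1* window TATAAA lay 227 to 222 bases before it. These windows were poor in G and C, with 38.4% for *Fpr1* and 38.8% for *Fpr2* against a median of 52.4% over all 32851 windows of this length. The *Cxcr4* window was rich in them (61.2%) and held a pair of overlapping TATAAA matches, one on each strand, 32 to 25 bases before the start.

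A window was found for 8 of the 9 receptors (10 windows, since *Ccrl2* has 3), and *Ccr7* had none. Each pattern was searched on both strands, and matches of different patterns may overlap. The NF-κB pattern was found upstream of *Ccr1*, *Ccr3* and *Ccrl2* and in 3.86% of all windows. TATAAA was found upstream of *Cxcr4*, *Fpr1* and *Fpr2* and in 12.4% of all windows. GAGGAA was found upstream of *Ccr1*, *Ccr3* and *Fpr2* and in 23.3% of all windows. Of the shorter ETS patterns, GGAAGT was found upstream of *Ccr3* alone against 19.7% of all windows, and CCGGAA in none of the 10 against 12.0%. The AP-1 pattern TGANTCA was found upstream of *Ccr3* (6.75% of all windows), and the interferon response pattern (GAAA repeated after any 2 bases) in none of the 10 (2.98%). No pattern was found upstream of *Cx3cr1*, which also fell and whose window is not printed, or upstream of *Ccr2*. The windows of both include annotated transcript sequence. A match of letters does not show that a factor binds there.

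To find how the receptors differed between sh-*Etv5* and sh-NC cells, log2(RPKM + 1) was compared with limma over the 10738 genes with at least 1 RPKM in at least 3 libraries. Of these genes, 7974 (74.3%) were called at an adjusted p under 0.05, with 3575 higher, 4399 lower and a median log2 fold change of -0.05. Only *Cx3cr1* and *Ccrl2* passed this filter, and both were called, in opposite directions. The 7 others were read in a fit with no filter on low values, in which 47.8% of 17831 genes were called. In that fit 7 of the 9 receptors were called, with *Ccr7*, *Ccrl2*, *Fpr1* and *Fpr2* higher and *Ccr1*, *Cx3cr1* and *Cxcr4* lower. For these 7 receptors every sh-*Etv5* library lay on one side of every sh-NC library, against 39.8% of all symbols in the table. That share is lowered by 6955 symbols listed at 0 in all libraries, which cannot separate, whereas none of the 9 receptors is among them. With 3 libraries in each group, the smallest p-value that an exact permutation test allows is 0.1. Fold changes on the log2(RPKM + 1) scale understate the change of genes at low levels, which covers every receptor here apart from *Cx3cr1*.

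**Figure D1:**
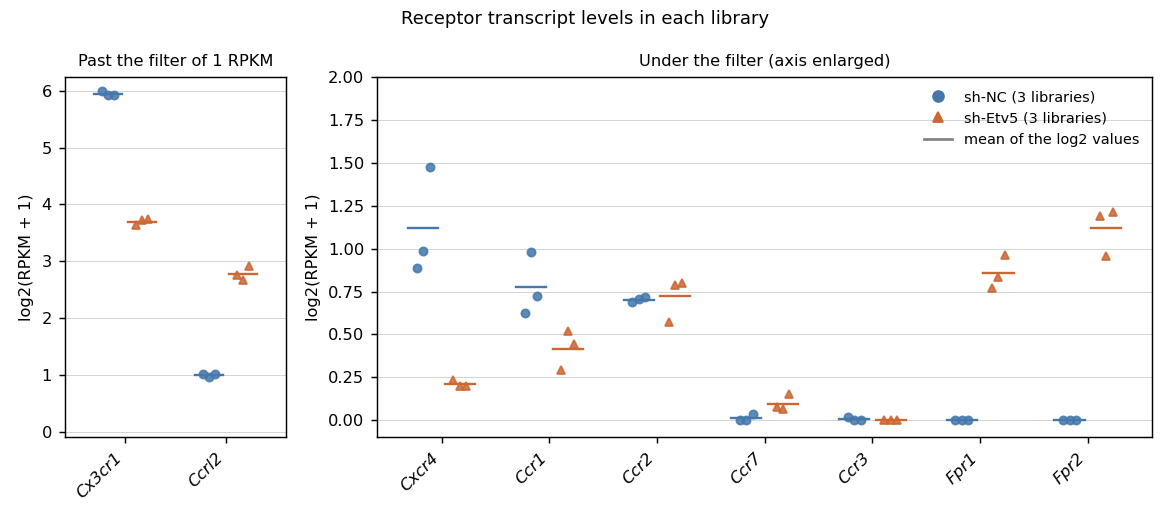
Level of each receptor in each library as log2(RPKM + 1), with sh-NC libraries as circles, sh-*Etv5* libraries as triangles and the mean of the 3 log2 values as a line. The left panel holds the pair of receptors past the filter and the right panel, on an enlarged axis, the 7 under it. *Cx3cr1*, *Cxcr4* and *Ccr1* are lower and *Ccrl2*, *Fpr1*, *Fpr2* and, near 0, *Ccr7* are higher in every sh-*Etv5* library, while *Ccr2* and *Ccr3* overlap.

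*Cx3cr1* encodes the receptor for the membrane-bound chemokine fractalkine and is a marker of patrolling monocytes and resident macrophages. Its level was 62.52, 59.47 and 59.71 RPKM in sh-NC libraries and 11.38, 12.22 and 12.35 RPKM in sh-*Etv5* libraries. The groups were far apart, and the lowest control library was above the highest knockdown library by a wide margin compared with the spread within each group. Its mean was 60.6 ± 1.69 RPKM in control and 11.98 ± 0.524 RPKM in knockdown libraries (SD, n = 3), which is 5.05-fold lower. On the log2 scale it changed by -2.25 (standard error 0.0441, 95% interval -2.34 to -2.15, limma adjusted p = 7.42e-12), and 19 of the 10738 tested genes fell by more. Exons of *Cx3cr1* overlap *Gm33858* on the opposite strand in GENCODE release M21. No source used here says that strand was used in counting, so that reads of the pair cannot be told apart.

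*Ccrl2* encodes an atypical receptor that binds the chemoattractant chemerin and presents it to neighbouring cells without signaling itself through G proteins. It was at 1.024, 0.9421 and 1.011 RPKM in sh-NC and at 5.76, 5.332 and 6.519 RPKM in sh-*Etv5* libraries. All knockdown libraries were above all control libraries. The mean rose 5.92-fold, from 0.992 ± 0.044 to 5.87 ± 0.601 RPKM (SD, n = 3). On the log2 scale it rose by 1.78 (standard error 0.079, 95% interval 1.61 to 1.96, limma adjusted p = 4.78e-09). A larger rise was seen in 217 of the tested genes. *Ccrl2* would have passed the filter on its sh-*Etv5* libraries alone.

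The formyl peptide receptors *Fpr1* and *Fpr2*, which guide neutrophils and monocytes toward formylated peptides, were listed at 0 in all 3 sh-NC libraries. *Fpr1* was at 0.708, 0.783 and 0.951 RPKM and *Fpr2* at 1.28, 0.942 and 1.32 RPKM in knockdown libraries. Both were thus seen in every knockdown library and in no control library, at levels near or under 1 RPKM. They entered the fit with no filter through their sh-*Etv5* libraries alone, so the direction of the difference was fixed. Control libraries, all at 0, add no spread of their own to the standard errors. On the log2(RPKM + 1) scale the difference was 0.86 for *Fpr1* (standard error 0.0505, limma adjusted p = 7.53e-05) and 1.12 for *Fpr2* (standard error 0.0725, limma adjusted p = 0.000107), and no fold is given against a group at 0. Of the 50-base stretches in *Fpr2* transcripts, 28.4% also occur in *Gm5966* and 6.33% in *Fpr3*, with which it also shares exon sequence on the same strand. The assignment of reads to *Fpr2* is therefore uncertain, although *Fpr3* was listed at 0 in all 6 libraries. *Fpr1* shares 0.0784% of its stretches, with *Fpr2*.

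Neutrophils are the cells in which formyl peptide receptors are best known, and of the 5 neutrophil markers *S100a8* moved with *Fpr1* and *Fpr2*. *S100a8*, which encodes a calcium-binding protein of neutrophils and activated myeloid cells, went from 0.306 ± 0.184 to 17.1 ± 2.29 RPKM (SD, n = 3), and the summed level of the 5 from between 0.123 and 0.491 to between 15.6 and 19.7 RPKM. The defining markers *S100a9*, *Ly6g* and *Elane* were at 0 in all 6 libraries, and *Mpo* did not exceed 0.021 RPKM. Among all 27 markers of other cell types, *S100a8* was the only one past the filter, which it passed through its sh-*Etv5* libraries alone. Of 3 dendritic cell markers, *Flt3* and *Siglech* did not exceed 0.0389 RPKM. The summed level of the 3, nearly all from *Zbtb46*, went from between 0.668 and 0.992 to between 0.122 and 0.19 RPKM. The endothelial markers *Pecam1* and *Cdh5* went the other way, from a sum between 0.171 and 0.361 to one between 1.07 and 1.21 RPKM, and were both called in the fit with no filter (limma adjusted p = 0.00024 and 0.001). The part of these markers in the changes of the receptors was not tested.

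*Cxcr4* encodes the receptor for CXCL12, which holds leukocytes in the bone marrow. It was at 0.849, 0.983 and 1.79 RPKM in sh-NC and at 0.174, 0.15 and 0.148 RPKM in sh-*Etv5* libraries. The groups did not overlap, but sh-NC library 3 stood well above the other two. The mean was 7.67-fold lower, at 0.157 ± 0.0144 against 1.21 ± 0.507 RPKM (SD, n = 3). On the log2(RPKM + 1) scale the difference was -0.91 (standard error 0.159, limma adjusted p = 0.00552). When any single library was left out it ranged from -1.02 to -0.73 with an adjusted p of at most 0.0208.

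*Ccr1*, a receptor for CCL3, CCL5 and related inflammatory chemokines, was at 0.544, 0.971 and 0.65 RPKM in sh-NC and at 0.223, 0.432 and 0.361 RPKM in sh-*Etv5* libraries. The lowest control library was only slightly above the highest knockdown library. The mean was 2.13-fold lower, with a difference of -0.36 on the log2(RPKM + 1) scale (standard error 0.109, limma adjusted p = 0.0414). That call was lost when any one of sh-NC library 2 (adjusted p = 0.0604), sh-NC library 3 (0.0784), sh-*Etv5* library 1 (0.109), sh-*Etv5* library 2 (0.0541) or sh-*Etv5* library 3 (0.0859) was left out, and on untransformed RPKM (0.0548).

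*Ccr7*, which brings dendritic cells to lymph nodes, was at 0.000649, 0 and 0.0248 RPKM in sh-NC and at 0.0534, 0.046 and 0.11 RPKM in sh-*Etv5* libraries. These levels are close to 0 in both groups. The difference was 0.08 on the log2(RPKM + 1) scale (standard error 0.0259, limma adjusted p = 0.0429), and the call was lost without sh-NC library 1 (adjusted p = 0.116), 2 (0.118) or 3 (0.0609), without sh-*Etv5* library 1 (0.0605), after quantile normalization (0.124), without the intensity trend (0.0611) and on untransformed RPKM (0.0534).

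*Ccr2*, the receptor for CCL2 on inflammatory monocytes, was at 0.609, 0.629 and 0.647 RPKM in sh-NC and at 0.489, 0.728 and 0.743 RPKM in sh-*Etv5* libraries. The groups overlapped, with a difference of 0.02 on the log2(RPKM + 1) scale (95% interval -0.15 to 0.19, limma adjusted p = 0.854) that turned to -0.10 after quantile normalization (adjusted p = 0.282). *Ccr3*, the receptor for eotaxins on eosinophils, was at 0.0148 RPKM in sh-NC library 1 and listed at 0 in the other 5 libraries.

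**Figure D2:**
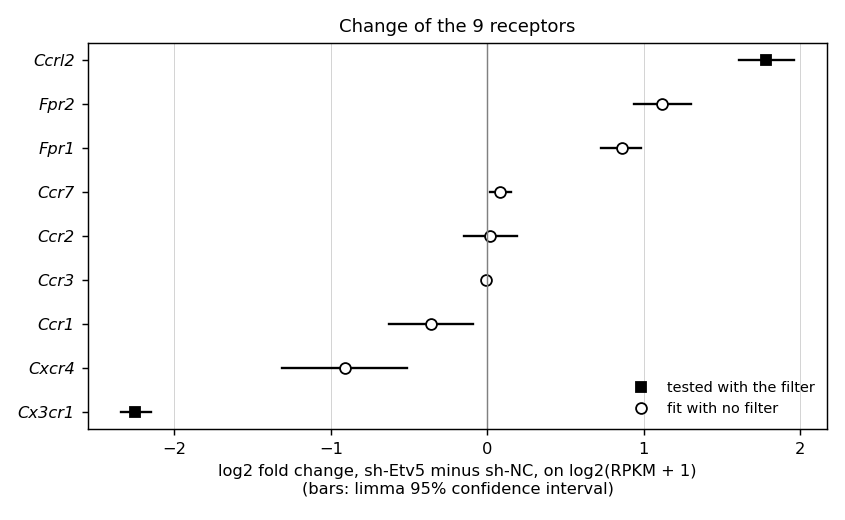
Difference of each receptor between sh-*Etv5* and sh-NC libraries (n = 3 each) on the log2(RPKM + 1) scale, with the 95% confidence interval from limma as a bar. Filled squares stand for the fit with the filter and open circles for the fit with no filter. Values run from -2.25 for *Cx3cr1* to 1.78 for *Ccrl2*, and the intervals of *Ccr2* and *Ccr3* include 0.

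The order of the levels was not the same in the 2 groups. In sh-NC cells *Cx3cr1* was far above *Cxcr4*, *Ccrl2*, *Ccr1* and *Ccr2*, whose ranges overlapped from each to the next, and *Ccr7*, *Ccr3*, *Fpr1* and *Fpr2* were at or near 0. In sh-*Etv5* cells *Cx3cr1* was followed by *Ccrl2*, each separate from the next, then by *Fpr2*, *Fpr1* and *Ccr2*, which overlapped from each to the next, and below them by *Ccr1*, *Cxcr4*, *Ccr7* and *Ccr3*. The summed level of the 9 receptors was between 62.99 and 65.56 RPKM in sh-NC libraries and between 20.07 and 22.5 RPKM in sh-*Etv5* libraries. *Cx3cr1* made up 94.4 ± 0.95% of the sum in sh-NC and 56.9 ± 2.16% in sh-*Etv5* cells (SD, n = 3). The share of *Ccrl2* was 1.55 ± 0.0416% in sh-NC and 27.8 ± 1.77% in sh-*Etv5* cells, where *Fpr2* made up 5.61 ± 0.935% and *Fpr1* 3.85 ± 0.353%. Without *Cx3cr1*, the sum was higher in sh-*Etv5* cells, at 9.08 ± 0.933 against 3.56 ± 0.539 RPKM.

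**Figure D3:**
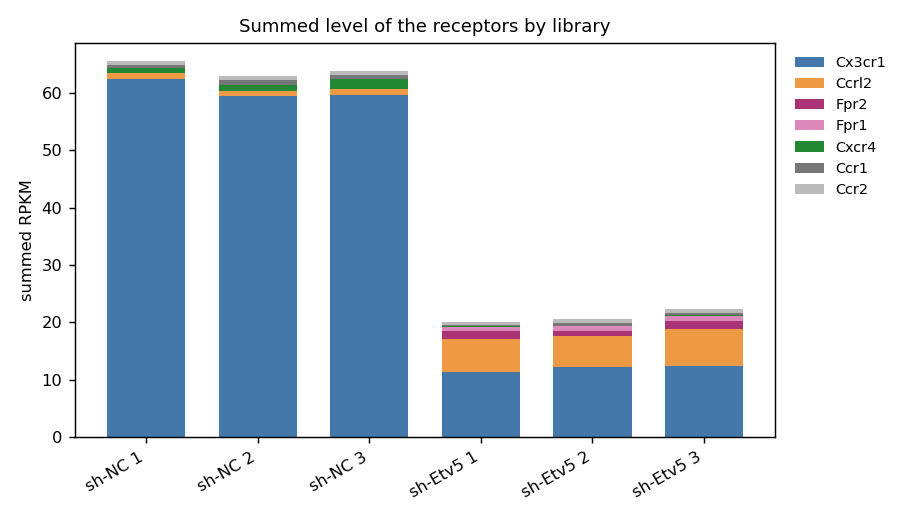
Summed RPKM of the receptors in each of the 6 libraries as stacked bars from 0, 1 color per receptor. *Ccr3* and *Ccr7* are left out because they are too low to be seen. *Cx3cr1* fills most of each sh-NC bar, and the sh-*Etv5* bars are shorter, with a larger *Ccrl2* segment.

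The tested genes whose levels lay closest to those of *Cx3cr1* over the 6 libraries, by the root mean square difference in log2(RPKM + 1), were *Arsb* (0.0869), which encodes a lysosomal sulfatase, *Bmyc* (0.267) and *Rasgrp3* (0.303), an activator of Ras proteins. *Arsb* went from 61.1 ± 1.88 to 12.5 ± 0.814 RPKM (SD, n = 3). Closest to *Ccrl2* were *Pi16* (0.09), *Itga7* (0.104), an integrin subunit, and *Dusp14* (0.11), a phosphatase. *Pi16* went from 0.85 ± 0.0627 to 6.09 ± 0.454 RPKM.

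The genomic neighbours of the receptors were mostly near 0. Beside *Cx3cr1*, the chemokine receptor gene *Ccr8* did not exceed 0.0421 RPKM and was listed at 0 in sh-*Etv5* libraries, and *Xirp1* had a mean of 0.0525 RPKM in sh-NC and 0.117 RPKM in sh-*Etv5* cells. *Ccrl2* lies between *Ltf*, which was at or near 0, and *Lrrfip2*, which was at 8.60 ± 0.163 RPKM in sh-NC and 20.5 ± 0.514 RPKM after knockdown (SD, n = 3). In the receptor cluster on chromosome 9, from *Ccr9* to *Ccr2*, none of the receptors exceeded 0.971 RPKM, the value of *Ccr1* in sh-NC library 2. *Ccr1l1*, *Cxcr6*, *Xcr1* and *Ccr9* did not exceed 0.156 RPKM, and *Fyco1*, a gene of vesicle transport within the cluster, was at 2.06 ± 0.0924 and 3.77 ± 0.377 RPKM. *Has1*, the gene on the other side of *Fpr1* at 20.9 kb, had a mean of 0.0388 RPKM in sh-NC and 0.426 RPKM in sh-*Etv5* cells. Beside *Cxcr4*, *Dars* was at 40.3 ± 0.603 RPKM in sh-NC and 34.8 ± 0.789 RPKM in sh-*Etv5* cells, and *Thsd7b* was listed at 0. Beside *Ccr7*, *Smarce1* was at 12.7 ± 0.368 and 10.5 ± 1.1 RPKM and *Tns4* at 0.517 ± 0.0717 and 0.462 ± 0.0321 RPKM.

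Of 18 other chemokine receptors, 15 were under the filter, among them *Cxcr1*, *Cxcr2*, *Ackr1* and *Ackr3* at 0 in all libraries, and the highest value among the 15 was 0.453 RPKM (*Ackr4*). Of the 3 tested, *Cxcr3* and *Cxcr5* rose, against 74.3% of all tested genes called in either direction. *Cxcr3*, the receptor for interferon-induced chemokines on T cells, was at 2.01 ± 0.353 RPKM in sh-NC and 3.01 ± 0.458 RPKM in sh-*Etv5* cells (limma adjusted p = 0.00449). *Cxcr5*, the receptor for CXCL13 on B cells, was at 1.34 ± 0.107 and 2.16 ± 0.159 RPKM (limma adjusted p = 0.000419). *Ccr10* was at 1.65 ± 0.0356 and 1.52 ± 0.344 RPKM and was not called (limma adjusted p = 0.462). The 4 B cell markers were low in both groups, at or under 0.367 RPKM, but their summed level was between 0.0367 and 0.199 RPKM in sh-NC and between 0.256 and 0.733 RPKM in sh-*Etv5* libraries. Of these, *Cd79b*, a subunit of the B cell receptor, was higher in the fit with no filter (limma adjusted p = 0.000524), while *Ms4a1* was at or near 0 in all libraries. Their part in the rise of *Cxcr5* was not tested. The 4 T cell markers stayed at or under 0.0999 RPKM.

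Of 16 other chemoattractant receptors, 15 were in the table and 4 were tested, with 2 higher and 2 lower at a median log2 fold change of 0.68. All 4 were thus called, against 74.3% of all tested genes, and *S1pr1* passed the filter through its sh-NC libraries alone. *C3ar1* and *C5ar1*, the receptors for the complement fragments C3a and C5a, rose. *C3ar1* was at 3.19, 3.61 and 3.59 RPKM in sh-NC and at 26.3, 28.3 and 28.6 RPKM in sh-*Etv5* libraries, which is 8.01-fold higher (log2 fold change 2.69, standard error 0.0582, limma adjusted p = 1.58e-11). *C5ar1* was at 5.99, 7.17 and 6.79 RPKM and at 40.0, 38.4 and 36.0 RPKM, which is 5.73-fold higher (log2 fold change 2.36, standard error 0.0635, limma adjusted p = 1.02e-10). In both genes every knockdown library was several fold above every control library, and both stood above *Cx3cr1* in sh-*Etv5* cells.

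*Gpr183* and *S1pr1*, which sense oxysterols and sphingosine 1-phosphate and position leukocytes within lymphoid tissue, fell together with *Cx3cr1*. *Gpr183* was at 25.5, 25.2 and 25.0 RPKM in sh-NC and at 3.84, 4.17 and 3.71 RPKM in sh-*Etv5* libraries (6.46-fold lower, log2 fold change -2.42, standard error 0.0521, limma adjusted p = 1.54e-11). *S1pr1* was 4.11-fold lower, at 0.473 ± 0.0784 against 1.94 ± 0.228 RPKM (limma adjusted p = 1.67e-06). Under the filter, *Ltb4r1*, a leukotriene B4 receptor, was listed at 0 in all sh-NC libraries and was at 0.373, 0.618 and 0.502 RPKM in sh-*Etv5* libraries, as *Fpr1* and *Fpr2* were seen in that group alone.

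Of 21 ligands of the 9 receptors, 12 were tested, with 9 higher and 1 lower, which is 83.3% called against 74.3% of all tested genes, and a median log2 fold change of 2.14 against -0.05. *Ccl7*, *Ccl12* and *Saa3* were under 1 RPKM in every sh-NC library and passed the filter through their sh-*Etv5* libraries alone, so they had to differ. Without these 3, 6 ligands were higher, 1 was lower and the median was 0.70. Ligands of *Ccr1* rose while *Ccr1* itself was low in both groups. *Ccl3* was at 222 ± 3.85 RPKM in sh-NC and 2836 ± 119 RPKM after knockdown (SD, n = 3, log2 fold change 3.67, limma adjusted p = 3.85e-14). *Ccl4*, at 97.3 ± 0.369 and 1222 ± 68.2 RPKM, rose 12.6-fold and *Ccl5*, at 5.27 ± 0.587 and 40.9 ± 4.3 RPKM, rose 7.75-fold. *Ccl9* (1.64-fold) and *Ccl6* (1.92-fold) rose less.

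The ligands of *Ccr2*, which itself was not called, were near 0 or low in sh-NC cells. *Ccl2*, the main chemokine for monocytes, was at 4.19, 3.18 and 3.63 RPKM in sh-NC and at 374, 353 and 378 RPKM in sh-*Etv5* libraries (log2 fold change 6.31, limma adjusted p = 6.61e-14). *Ccl7* was listed at 0 in sh-NC libraries 1 and 3, was at 0.0591 RPKM in sh-NC library 2, and was at 91.8, 88.2 and 99.2 RPKM in sh-*Etv5* libraries (limma adjusted p = 1.75e-14). *Ccl12* was at 0, 0.0904 and 0.181 RPKM in sh-NC and at 7.62, 7.29 and 8.65 RPKM in sh-*Etv5* libraries (limma adjusted p = 2.16e-10).

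Ligands of *Cx3cr1*, *Ccrl2* and *Cxcr4* were low, listed at 0 or little changed. *Cx3cl1*, which encodes fractalkine, did not exceed 0.0514 RPKM in any library. *Rarres2*, which encodes chemerin, was at 1.95 ± 0.21 RPKM in sh-NC and 1.71 ± 0.149 RPKM after knockdown (SD, n = 3) and was not called (limma adjusted p = 0.194). *Cxcl12* was listed at 0 in all libraries, whereas *Mif*, which also binds CXCR4, was at 679 ± 9.81 and 615 ± 28.1 RPKM (log2 fold change -0.14, limma adjusted p = 0.00485). Among ligands of the formyl peptide receptors, the serum amyloid gene *Saa3* rose from 0.391 ± 0.134 to 3.13 ± 1.0 RPKM (log2 fold change 1.55, limma adjusted p = 3.31e-06), and *Anxa1*, which encodes annexin A1, was at 87.6 ± 4.31 and 83.9 ± 4.21 RPKM and was not called (limma adjusted p = 0.248). *Ccl8*, *Ccl11*, *Ccl19* and *Ccl26* were listed at 0 in all libraries, and *Ccl24*, *Ccl21a* and *Camp* did not exceed 0.166 RPKM.

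**Figure D4:**
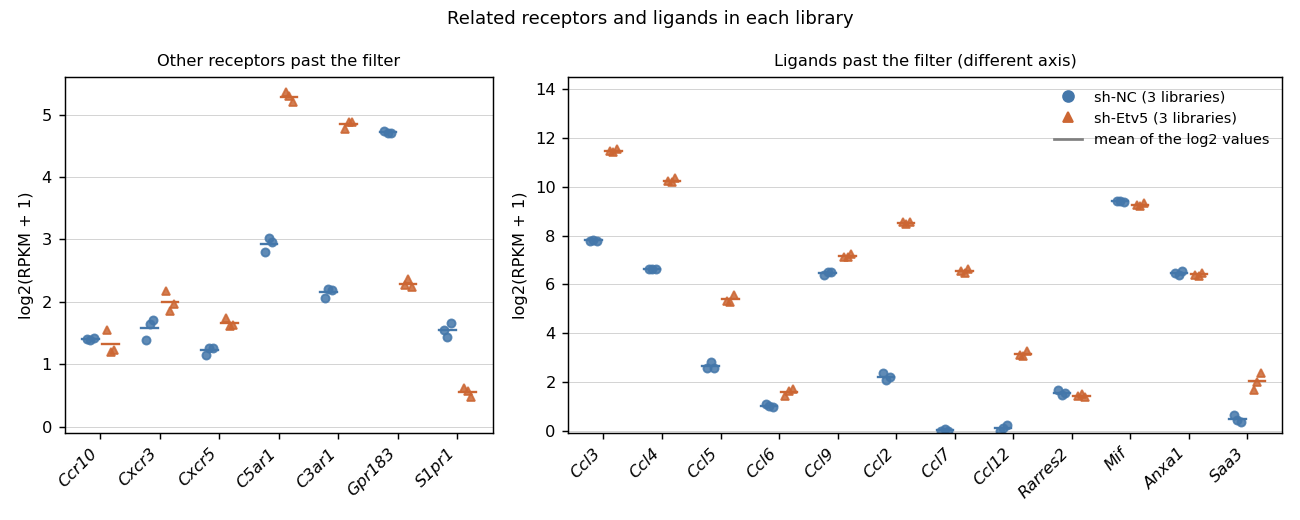
Levels of other receptors (left) and of ligands of the 9 receptors (right) past the filter in each library as log2(RPKM + 1), on different axes, with sh-NC libraries as circles, sh-*Etv5* libraries as triangles and the mean of the 3 log2 values as a line. *C3ar1* and *C5ar1* are higher and *Gpr183* and *S1pr1* lower in every sh-*Etv5* library, and among ligands *Ccl2*, *Ccl7*, *Ccl3* and *Ccl4* show the widest gaps.

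Of 28 genes of the shared signal transduction, 25 were tested, with 9 higher, 11 lower and a median log2 fold change of -0.02. The share called was 80% against 74.3% of all tested genes. Their largest changes were those of *Pak1*, a kinase downstream of Rac, which was 2.63-fold lower (limma adjusted p = 9.71e-10), and of the Gγ subunit genes *Gng5* and *Gng2*, which were 1.82-fold (limma adjusted p = 5.98e-09) and 1.78-fold higher (limma adjusted p = 3.26e-07). Of 18 genes that end receptor signaling, 16 were in the table and 12 were tested, with 4 higher, 7 lower and a median of -0.25. The share called was 91.7% against the same 74.3%, and *Rgs16*, which passed the filter through its sh-NC libraries alone, is among the lower ones. The largest changes were in regulators of G-protein signaling, which speed the return of Gα subunits to the inactive state. *Rgs1* rose from 28.6 ± 1.41 to 67.2 ± 3.57 RPKM (SD, n = 3, log2 fold change 1.2, limma adjusted p = 2.49e-09) and *Rgs3* from 1.65 ± 0.287 to 5.33 ± 0.266 RPKM (1.26, limma adjusted p = 1.47e-07), while *Rgs16* fell from 2.19 ± 0.314 to 0.522 ± 0.135 RPKM (-1.07, limma adjusted p = 2.68e-06).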

How the data were processed

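Messenger RNA of 3 sh-NC and 3 sh-*Etv5* libraries was analysed, with groups and replicate numbers taken from the sample labels. The authors deposited RPKM values from coverage tracks, 1 per gene symbol and library, with no log transformation. The build is mm10 in the submitters' processing notes. The aligner, counter and annotation are not given in the sources used here. Length and total reads are already part of the values, so that a few abundant genes that change shift all others, and reads shared by overlapping genes may count for each.

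The groups were compared on log2(RPKM + 1) for genes that reached 1 RPKM in 3 or more libraries, using limma 3.58.1 under R version 4.3.3 (eBayes with trend, both directions, no covariate, Benjamini-Hochberg adjustment over all genes tested, threshold 0.05). Receptors under this filter were read from a fit to all 17831 genes with any value above 0. The limma step was tested on simulated data with independent libraries and few changed genes. Most tested genes were called in the real data, so that test does not cover these conditions. Depth is unknown, so precision rests on the spread between libraries.

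The receptors, the gene lists and the rule for named genes were chosen with earlier results of these data known. The rule named *Etv5*, the 9 receptors, every related receptor or ligand past the filter, the 3 largest changes of each signaling list, the 3 genes closest in level to *Cx3cr1* and *Ccrl2*, and neighbours of the receptor genes on chromosome 9. Other genes were named after their values were seen. Gene spans and upstream windows came from RefSeq (GRCm38.p6) and exon overlaps from GENCODE release M21, in which 24255 of the 24786 symbols were found. Alternatives were pseudocounts of 0.1 and 0.01, other filters, scalings and thresholds, no trend, the replicate block, untransformed RPKM and each library left out. Python 3.11.15, pandas 2.3.3, NumPy 2.4.6 and matplotlib 3.10.9 were used.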

Additional observations from a re-analysis of the deposited data

How the results depend on the processing

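*Cx3cr1*, *Ccrl2* and *Cxcr4* kept their direction and stayed called under every alternative fit that gave a value. Their highest limma adjusted p was 1.71e-06, 2.61e-05 and 0.0212. *Fpr1* and *Fpr2* also stayed called in these fits (highest limma adjusted p = 0.00156 and 0.00181). The direction of these 2 genes was fixed in advance, because every sh-NC library was at 0 and added no spread. The threshold of 1 on the log2 fold change is not among these fits, and *Cxcr4* (-0.91) and *Fpr1* (0.86) did not reach it. *Ccrl2* gave no value at a mean of at least 5 RPKM, and receptors under the filter were recomputed without it throughout. *Ccr1* lost its call under 6 of 13 alternatives and *Ccr7* under 7 of 13, with no change of direction. When single libraries were left out the difference ranged from -0.43 to -0.26 for *Ccr1* and from 0.06 to 0.10 for *Ccr7*. With no filter, 7 of the 9 receptors were called, against 47.8% of all genes in that fit. At a mean of at least 5 RPKM only *Cx3cr1* remained and was called, in a fit that called 2564 genes higher and 3528 lower. Of the 18 other chemokine receptors, 4 were at 0 in all libraries and 5 were called with no filter, against the same 47.8%. None of them reached a mean of 5 RPKM. A log2 fold change beyond 1 as well left 669 higher and 322 lower genes. Rescaling the libraries to the same sum moved the median log2 fold change from -0.05 to -0.10. The low receptors have no known read number behind them, and a level listed at 0 may be a level too low for the depth.

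Same-numbered libraries did not deviate together from their group means (correlations 0.0739, -0.071 and -0.0352). With 3 libraries in each group, this cannot decide whether libraries with the same replicate number shared a culture or infection. A fit with that number as a block gave 3539 higher and 4361 lower genes, 7813 of these 7900 were called in the same direction without it, and no call among the 9 receptors changed. Under the block the limma adjusted p was 8.33e-09 for *Cx3cr1*, 3.26e-07 for *Ccrl2*, 0.0105 for *Ccr1* and 0.0192 for *Ccr7*.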
